A study of Mus musculus with 12 samples.

Results

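The 44 genes described here encode the DNA replication machinery of the cell apart from the MCM helicase. They were taken by name as the origin, polymerase, clamp, GINS and nucleotide supply factors, with the single-strand binding, strand-joining, fork protection and chromatin assembly factors that work beside them. All 44 were found among the 48795 genes of the count table, and all 44 were among the 14676 genes that passed the filter on low counts. RNA-Seq was performed on long-term HSCs (LT-HSCs), the marrow cells that can rebuild all blood lineages for life, in 12 libraries, 3 in each of 4 groups. The groups were normal c-KIThi, normal c-KITlo, CML c-KIThi and CML c-KITlo, sorted by surface staining of c-KIT, the receptor for stem cell factor. The study set its gates on the highest and lowest staining control LT-HSCs and used these gates for CML LT-HSCs too. The CML groups are therefore not bound to be the highest and lowest staining CML cells. CML cells came from Scl-tTA-BCR-ABL mice, in which the Scl (Tal1) regulatory element drives a doxycycline-repressed activator of BCR-ABL in primitive blood cells, so that disease develops once doxycycline is withdrawn. Where the study transplanted such marrow, hosts were lethally irradiated and could still hold cells of their own, told apart by CD45.1. The labels call the normal mice B6, whereas the methods describe transplanted cells of the same transgene kept on doxycycline as normal controls, and the sources used here do not settle which applies to these libraries. Mice of both sexes were used as young adults. No source ties a replicate number to an animal, so p-values measure a spread between libraries. That spread was estimated for each gene over all 4 groups together, not only over the groups compared.

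Replication starts in G1, when the origin recognition complex, *Cdc6* and *Cdt1* load MCM rings onto origins. In S phase the Cdc7-Dbf4 kinase, *Cdc45* and GINS turn the loaded rings into active helicases, polymerase alpha-primase lays primers, and polymerases delta and epsilon extend them on the PCNA clamp. Many of these genes are classic targets of E2F transcription factors, which are held in check by the retinoblastoma family in resting cells, and HSCs are known for resting most of the time.

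Stretches of DNA around E2F-type words in the promoters are shown because such words were found in a larger share of member promoters than of all promoters. The members were not chosen by promoter sequence. As many replication genes are classic E2F targets, a larger share was likely from the choice itself, and the sets compared include the members. RefSeq promoter windows (GRCm38.p6, 250 bases before to 50 after a gene's start) were matched by symbol for 36 of the 44 members, giving 44 windows with alternative starts. Those not matched were *Gmnn*, *Gins1*, *Gins2*, *Gins4*, *Prim2*, *Pole*, *Rfc2* and *Tipin*. Searches on both strands used the word TTCCCGC, besides it the word TTGGCGC, which can overlap its own reverse complement, then the word TTCGCGC, and as the last one the word TTGCCGC. A word was present in 56.8% of member windows (25 windows of 23 genes), compared with 16.3% of the 13255 windows of tested genes and 9.57% of all 32851 windows. Words with a further T in front (TTTCCCGC, TTTGGCGC, TTTCGCGC and TTTGCCGC) were in 25% of member windows, compared with 3.95% and 2.26%. The 7-letter words were in 43.6% of the 39 windows of other DNA replication genes and in 5 of 7 windows of MCM genes, and the 8-letter words in 25.6% and in 4 of 7. Other motifs were searched too and are not marked below. The E-box CACGTG was in 18.2% of member windows, compared with 9.77% of windows of tested genes and 7.15% of all windows. For CCAAT the shares were 43.2%, 37.6% and 37.4%, and for the CHR motif 18.2%, 14.2% and 19.2%. The 34 positions of 7-letter words lay from 235 bases before to 42 bases after the start, with a median of 21 before. One 7-letter word of each stretch is in capitals below (that of *Rfc3* holds a further word on the other strand, left in lower case), each on the strand and in the direction of its gene, for the members that passed the test in a comparison and hold a word, and for the other members with an 8-letter word at that position.
Rpa3 (chr6:8259153-8259181, minus strand): atctgcccgggTTGGCGCggccgcccgct
Pold1 (chr7:44548766-44548787, minus strand): cgtatcttgtgGCGGGAAaagc
Orc1 (chr4:108579416-108579444, plus strand): ttcggttagtgGCGCGAAaagttttctcc
Orc3 (chr4:34614965-34614993, minus strand): catgcctccctTTCCCGCacgccccgcct
Cdc6 (chr11:98908002-98908030, plus strand): gccggtggagaGCGGGAAatcgcctgggg
Cdt1 (chr8:122568037-122568064, plus strand): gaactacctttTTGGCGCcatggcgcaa
Gins3 (chr8:95633507-95633535, plus strand): gcgagtgcggcGCGGGAAagcgagtttga
Pola1 (chrX:93632276-93632304, minus strand): gtcatcacaggGCGCCAAatgcactcccg
Pold3 (chr7:100121467-100121495, minus strand): agcgaagctgtTTCCCGCcggcgggagct
Pole2 (chr12:69228163-69228191, minus strand): cgtcggcggtgGCGCCAAatcgcgaacat
Rfc3 (chr5:151651200-151651228, minus strand): cgtcgcacgctTTCGCGCtcgcgggaaaa
Lig1 (chr7:13278841-13278869, plus strand): cgccaaagtgcGCGCGAAatctgtgtggc

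The promoter of *Chaf1a*, which passed the test in CML, is shown for the whole stretch before the start because it carries 2 words within a few bases of each other, and that of *Dbf4*, which passed it in normal LT-HSCs, because its window held no word. Only bases outside annotated exons were taken, with the words in capitals.
Chaf1a (chr17:56040166-56040415, plus strand): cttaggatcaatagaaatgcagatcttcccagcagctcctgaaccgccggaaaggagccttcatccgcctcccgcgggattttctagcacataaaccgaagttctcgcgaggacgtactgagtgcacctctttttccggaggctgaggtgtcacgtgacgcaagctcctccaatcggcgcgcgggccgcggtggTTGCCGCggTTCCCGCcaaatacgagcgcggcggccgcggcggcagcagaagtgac
Dbf4 (chr5:8422717-8422849, minus strand): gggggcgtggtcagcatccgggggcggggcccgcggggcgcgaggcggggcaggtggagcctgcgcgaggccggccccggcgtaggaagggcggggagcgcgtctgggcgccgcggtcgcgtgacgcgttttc
*Rpa1*, which also passed the test in CML, held no word in its window. A word in a window is a description of these letters and not evidence that E2F binds there. Among members, log2 fold changes of c-KITlo versus c-KIThi ranged from -3.11 to 0.89 with a word (23 genes) and from -2.34 to 0.40 without (13 genes) in normal, and from -2.81 to 2.39 and from -1.62 to 1.199 in CML, so both kinds of promoter were found on either side of 0.

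Libraries held 7753878 to 31020852 counts on genes, with 48286 to 131310 of them on the 44 members. The labels differed in depth and quality. Counts on genes were 7753878 to 13213021 in the c-KIThi and 14487608 to 31020852 in the c-KITlo libraries. Their share was taken of reads that HTSeq placed in a gene or classed as no feature, ambiguous or not uniquely aligned. It was 24.4% to 37.1% and 43.9% to 60.6%, and neither the counts nor the shares overlapped. Both move with every c-KITlo versus c-KIThi change given here, and their part in the results was not tested beyond thinning to equal counts. The levels are given as CPM, the counts of a gene per 1e+06 counts, on library sizes scaled by the trimmed mean of M-values (TMM). *Kit* mRNA went against the labels in 5 of the 6 libraries labelled c-KITlo, although the labels refer to the sorted surface protein, which was not measured here. It was measured at 132, 143 and 129 CPM in libraries labelled normal c-KIThi and at 380.0, 675 and 33.6 CPM in those labelled normal c-KITlo. In CML it was 57.6, 104 and 218 CPM under the c-KIThi label and 470.4, 494 and 565 CPM under the c-KITlo label, so that all CML c-KITlo libraries lay above all CML c-KIThi libraries (adjusted p = 0.115 in CML and 0.254 in normal). In what follows c-KITlo and c-KIThi are the labels of the libraries, and each direction is one between libraries so labelled. An exchange of the labels would turn each of these directions, and was not tested. All 10 LT-HSC marker genes had counts in each group. Their summed level was 939 to 1462 CPM in c-KIThi and 2242 to 4072 CPM in c-KITlo libraries, without overlap. Among markers of other cells, the 9 neutrophil genes summed to 47.7 to 6040 CPM and were highest in normal c-KITlo replicate 3. The 6 megakaryocyte genes summed to 880 to 11845 CPM and were highest in normal c-KIThi replicate 1. The B cell and the T and NK cell lists stayed at or under 382 and 1095 CPM. Each group had counts for 4 to 7 of the 8 B cell genes and for 4 to 6 of the 7 T and NK cell genes. *Cd3g* was at 0 in all groups and *Pax5* in 3 of them. The T and NK cell genes summed to 310 to 1095 CPM in CML c-KIThi and 185 to 235 CPM in CML c-KITlo libraries, without overlap, and to 154 to 206 and 45.6 to 401 CPM in the normal ones. The B cell genes also did not overlap between labels, with opposite order by disease state, at 80.3 to 92.5 CPM in normal c-KIThi, 200.7 to 382 CPM in normal c-KITlo, 134 to 190 CPM in CML c-KIThi and 66.6 to 93.9 CPM in CML c-KITlo libraries. The monocyte, erythroid, mast cell, stromal and gate-negative lists reached at most 72.8, 459, 875, 93.8 and 58.0 CPM. The part of these other cells in the results was not tested. Because the libraries are of bulk RNA, fewer cells that express a gene and less of its RNA per cell cannot be told apart.

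One library stood apart for the members. Normal c-KITlo replicate 1, the deepest library, held 0 counts for *Cdc45*, which travels with the helicase, and for *Pola1*, the catalytic subunit of the priming polymerase. It also held 1 count for *Timeless* and 5 for *Gins3*, while the other 11 libraries had at least 10 counts for all 44 members. The gap was not confined to the members. This library had the fewest genes with at least 10 counts, 9760 compared with 10823 to 13849 in the others. Genes outside the members, such as *Uhrf1*, *Bub1b* and *Plk1*, also had 0 counts in it. The other normal c-KITlo libraries had 71.2 and 74.2 CPM of *Cdc45* and 13.2 and 11.7 CPM of *Pola1*. The mean log2 CPM of the members was 5.21 in this library, 5.93 and 6.18 in normal c-KITlo replicates 2 and 3, and 6.28 to 6.79 in the 9 libraries of the other groups. The spread between replicates also differed by group. The median coefficient of variation of the members was 24.9% in normal c-KIThi, 53.6% in normal c-KITlo, 30.6% in CML c-KIThi and 9.65% in CML c-KITlo LT-HSCs, compared with 52.8%, 83.1%, 52.6% and 21.0% over all genes tested. The fit pools these unequal spreads for each gene. Each p-value and SE in normal thus also rests on the CML libraries, and the reverse. No pair of replicates agreed within sampling noise (chi-square per gene of 37.3 to 642), so each library was counted once.

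Taken as a sum, replication factor mRNA was lower in c-KITlo than in c-KIThi libraries, as the plot of summed levels shows; the sums were not tested. The 44 members summed to 7481, 6988 and 6155 CPM in normal c-KIThi LT-HSCs and to 4061, 4111 and 5920 CPM in normal c-KITlo LT-HSCs. In CML they summed to 8055, 6979 and 5495 CPM in c-KIThi and to 5119, 5066 and 4962 CPM in c-KITlo LT-HSCs. All c-KITlo libraries thus lay below all c-KIThi libraries of the same disease state. The listed MCM genes (*Mcm2* to *Mcm7* of the helicase, and *Mcm10*) ran the other way in CML. They summed to 1334, 998 and 1011 CPM in c-KIThi and to 3404, 3039 and 3102 CPM in c-KITlo LT-HSCs. The 7 MCM genes have principal transcripts of 2910 to 4867 bases, whereas 16 members are under 2 kb. In CML the median log2 fold change of all tested genes was 0.81 from 2 to 5 kb and -0.92 under 2 kb. Of the 16 members under 2 kb, 15 were below 0 in CML, compared with 10 of the 24 members of 2 to 5 kb (median 0.23). The lower sum in CML was thus not a fall shared by members of every length. The part of length in the sums and in the contrast with the MCM genes was not tested.

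**Figure D1:**
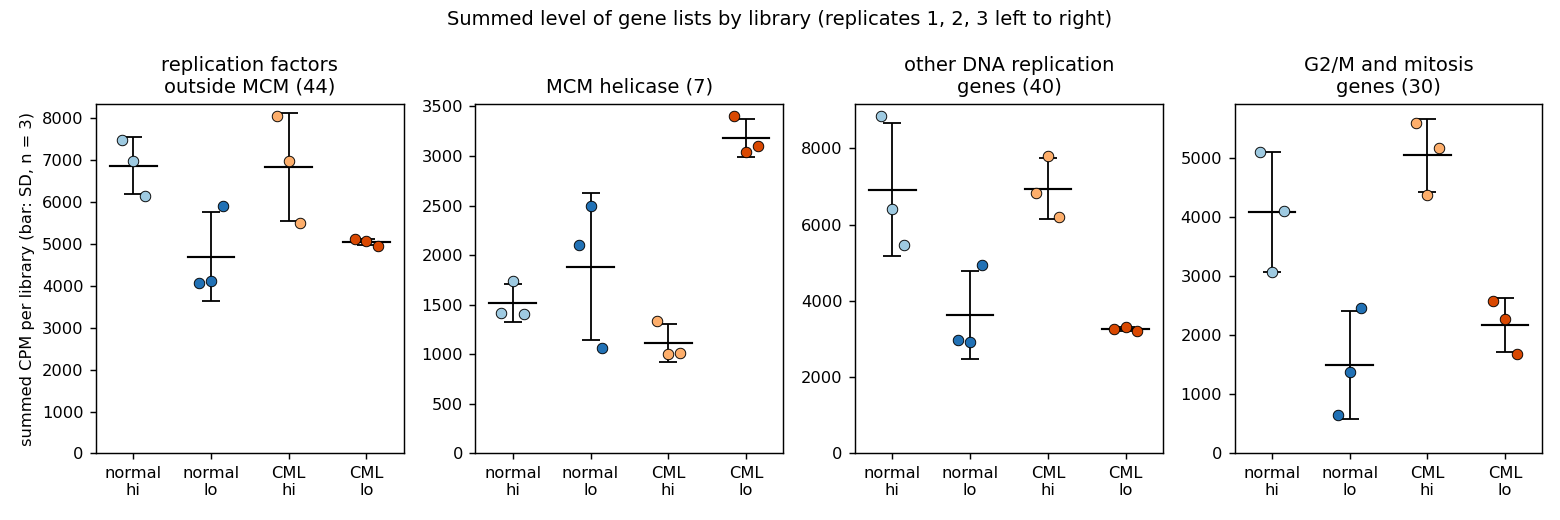
Summed CPM of 4 gene lists (y axis, from 0) in the 12 libraries by group (x axis). Points are replicates 1, 2 and 3 from left to right, with the mean and SD of 3 libraries. The 44 replication factors outside MCM sum to 4061 to 5920 CPM in the 6 c-KITlo libraries and to 5495 to 8055 CPM in the 6 c-KIThi libraries. The 7 MCM genes (Mcm2 to Mcm7 of the helicase, and Mcm10) are highest in CML c-KITlo libraries.

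In normal LT-HSCs, 2 of the 44 members were lower in c-KITlo than in c-KIThi libraries and none was higher by edgeR at an adjusted p under 0.05 over all genes. *Dbf4*, the activating subunit of the origin-firing kinase, fell 5.07-fold and *Rpa3*, the smallest subunit of the single-strand binding complex RPA, fell 4.70-fold. Over all tested genes 3.4% were called lower and 3.1% higher, so the 4.55% of members called lower is close to the background. The members nevertheless leaned one way. Their median log2 fold change was -0.70, compared with 0.16 over all genes tested, and 32 of 44 (72.7%) lay below 0, compared with 45.8%. All 3 c-KITlo libraries lay below all 3 c-KIThi libraries for 17 members (38.6%, compared with 12.6% of all genes) and above them for 1 member, *Pole* (2.27%, compared with 11%). Without normal c-KITlo replicate 1, neither gene was called and the median was -0.54, and without normal c-KIThi replicate 2 it was -0.40. No member was called lower without any one of 8 other libraries, 1 was called without CML c-KIThi replicate 1 or replicate 3, and 9 were called lower and 1 higher without normal c-KITlo replicate 3. With 1 library left out, 0 to 1849 of all genes were called. The share of all genes in each such fit is not given here, so these counts are not results about the members alone. By DESeq2, 15 members were called lower and none higher, against 10.2% and 8.19% of all genes. With only the normal libraries in the fit (0% of all genes each way) or by limma-voom (0% lower, 0.0136% higher) no member was called, and with median-of-ratios scaling 3 were lower (3.73%) and 0 higher (2.19%).

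In CML LT-HSCs, members were called in both directions, with the large and small subunits of RPA on opposite sides. *Chaf1a* rose 5.24-fold, *Pold1* rose 4.61-fold and *Rpa1* rose 2.21-fold in c-KITlo versus c-KIThi libraries. *Rpa3* fell 6.99-fold, *Gins1* fell 3.10-fold and *Tipin* fell 3.03-fold. With the trend on principal transcript length removed, *Tipin* kept its call, whereas *Rpa1* was at 0.04 (adjusted p = 0.984) and *Rpa3* at -0.29 (adjusted p = 0.734) on the log2 scale, so that the opposite calls of RPA were lost. These 3 and 3 of 44 (6.82% each way) stand beside 2.91% called higher and 5.53% called lower over all genes. The median member had a log2 fold change of -0.37, compared with 0.05 over all genes, and 26 of 44 (59.1%) lay below 0, compared with 48.8%. Groups did not overlap for 15 members that were lower (34.1%, compared with 23.6% of all genes) and 9 that were higher (20.5%, compared with 27.6%). Leaving out any one of the CML c-KITlo libraries or CML c-KIThi replicate 2 left no member called in CML, and leaving out CML c-KIThi replicate 1 or 3 left 1, which was lower. Without a normal library, 0 to 3 members were called higher and 1 to 11 lower. Over all fits with 1 library left out, 0 to 2084 of all genes were called, so these counts too are not results about the members alone. Members called higher and lower numbered 3 and 12 by DESeq2 (8% and 13.7% of all genes), 6 and 13 with only the CML libraries in the fit (15.8% and 16.2%), 8 and 17 by limma-voom (20.4% and 22.4%), and 1 and 7 with median-of-ratios scaling (2.59% and 6.53%).

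**Figure D2:**
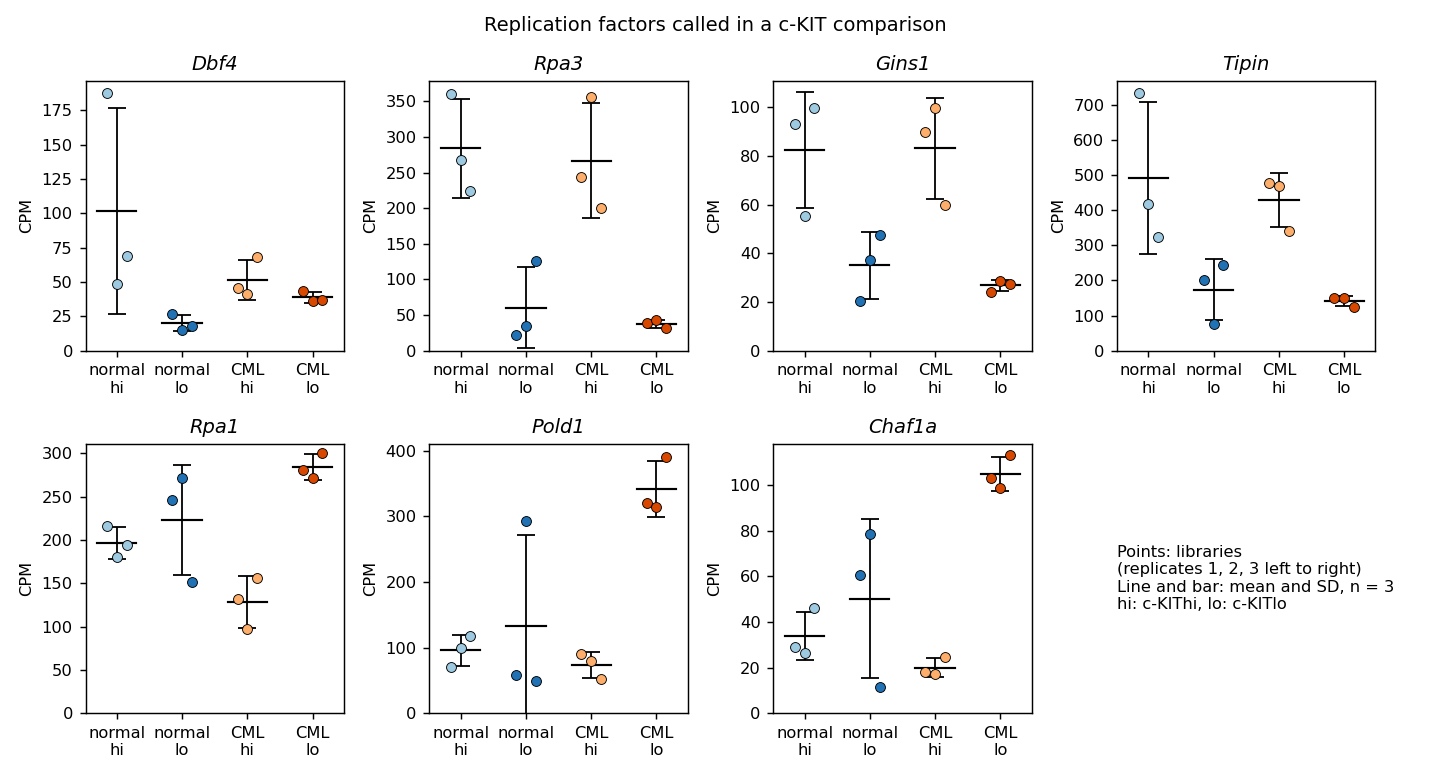
CPM (y axes, from 0) of the 7 members called in a c-KIT comparison, by group (x axes). Points are replicates 1, 2 and 3 from left to right, with the mean and SD of 3 libraries, and a bar that would pass 0 is cut there. Rpa3 is low in both c-KITlo groups, Dbf4 is lowest in normal c-KITlo libraries at 15.4 to 26.8 CPM, and Pold1 and Chaf1a are highest in CML c-KITlo libraries.

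Of the origin recognition genes, *Orc1* to *Orc6*, no member was called in either disease state. All 6 were below 0 in normal (log2 fold changes from -1.34 to -0.14) and 3 of 6 were below 0 in CML (from -1.45 to 0.79). *Orc6*, the smallest subunit and the highest of the 6 per kilobase, was measured at 185, 84.7 and 93.9 CPM in normal c-KIThi LT-HSCs, 48.8, 24.8 and 85.6 CPM in normal c-KITlo, 99.1, 134 and 103 CPM in CML c-KIThi, and 35.3, 52.3 and 35.7 CPM in CML c-KITlo. Its groups did not overlap in CML, where its log2 fold change was -1.45 ± 0.48 (SE, adjusted p = 0.0778), and overlapped narrowly in normal. *Orc4*, another core subunit, was at 96.3, 90.8 and 58.0 CPM in normal c-KIThi LT-HSCs, 26.2, 38.2 and 32.1 CPM in normal c-KITlo, 27.9, 47.1 and 66.1 CPM in CML c-KIThi, and 31.3, 31.9 and 20.02 CPM in CML c-KITlo. It was separated in normal (-1.34 ± 0.46, adjusted p = 0.0938) and overlapped in CML. *Orc1*, the subunit with a cell cycle-regulated ATPase, was the lowest of all 44 members per kilobase, at 1.54 to 14.6 CPM.

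Neither the licensing factors that load MCM nor their inhibitor were called. Geminin (*Gmnn*), which binds and blocks *Cdt1* after S phase begins, was at 245, 189.6 and 168 CPM in normal c-KIThi LT-HSCs, 16.98, 41.5 and 154 CPM in normal c-KITlo, 241, 291 and 224 CPM in CML c-KIThi, and 62.0, 62.7 and 57.4 CPM in CML c-KITlo. All c-KITlo libraries were below all c-KIThi libraries in both disease states, but neither change was called (-1.50 ± 0.60, adjusted p = 0.134 in normal and -2.05 ± 0.61, adjusted p = 0.0558 in CML). *Cdc6*, an MCM loader, was at 38.2, 49.96 and 49.5 CPM in normal c-KIThi LT-HSCs, 29.6, 39.3 and 28.7 CPM in normal c-KITlo, 38.7, 42.9 and 37.2 CPM in CML c-KIThi, and 65.6, 54.5 and 59.3 CPM in CML c-KITlo. In CML its c-KITlo libraries were all above its c-KIThi libraries (0.59 ± 0.39, adjusted p = 0.352). *Cdt1*, its partner, was at 0.50 ± 0.42 in CML and -0.16 ± 0.42 in normal on the same log2 scale.

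Origin firing factors held 1 called member in each disease state. *Dbf4* (chr5:8396973-8422716, GRCm38) was at 188, 48.8 and 69.2 CPM in normal c-KIThi LT-HSCs, 26.8, 15.4 and 18.03 CPM in normal c-KITlo, 45.7, 41.3 and 68.4 CPM in CML c-KIThi, and 43.4, 36.0 and 37.1 CPM in CML c-KITlo. The normal groups did not overlap and normal c-KIThi replicate 1 was the highest library. The log2 fold change was -2.34 ± 0.54 (adjusted p = 0.0304) in normal and -1.54 (adjusted p = 0.0936) without that replicate, and -0.41 ± 0.52 (adjusted p = 0.646) in CML. Its catalytic partner *Cdc7* ranged from 8.82 to 148 CPM and was not called (-0.72 ± 0.79 and -0.999 ± 0.797). *Gins1* (chr2:150905400-150931280, GRCm38), one of the 4 GINS subunits of the active helicase, was at 92.9, 55.3 and 99.4 CPM in normal c-KIThi LT-HSCs, 20.4, 37.3 and 47.6 CPM in normal c-KITlo, 89.8, 99.6 and 59.8 CPM in CML c-KIThi, and 24.1, 28.6 and 27.5 CPM in CML c-KITlo. The groups were apart in both disease states, and the change passed the test in CML (-1.63 ± 0.44, adjusted p = 0.042) but not in normal (-1.23 ± 0.44, adjusted p = 0.102). *Gins4*, the most abundant of the firing factors per kilobase, was at 96.3, 98.0 and 125 CPM in normal c-KIThi LT-HSCs, 124, 90.4 and 299 CPM in normal c-KITlo, 220.0, 194 and 119 CPM in CML c-KIThi, and 85.2, 97.6 and 90.0 CPM in CML c-KITlo. It was apart only in CML (-0.97 ± 0.44, adjusted p = 0.176) and was at 0.69 ± 0.44 in normal. *Gins2* (67.3% of its exonic bases shared with *Gse1*, so that reads there were counted for neither gene) was at -0.96 ± 0.68 and -1.17 ± 0.68. Among all members the SE was above 1 for *Orc1*, *Cdc45*, *Gins3*, *Pola1* and *Timeless* in both comparisons, and the last 4 had at most 5 counts in normal c-KITlo replicate 1.

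**Figure D3:**
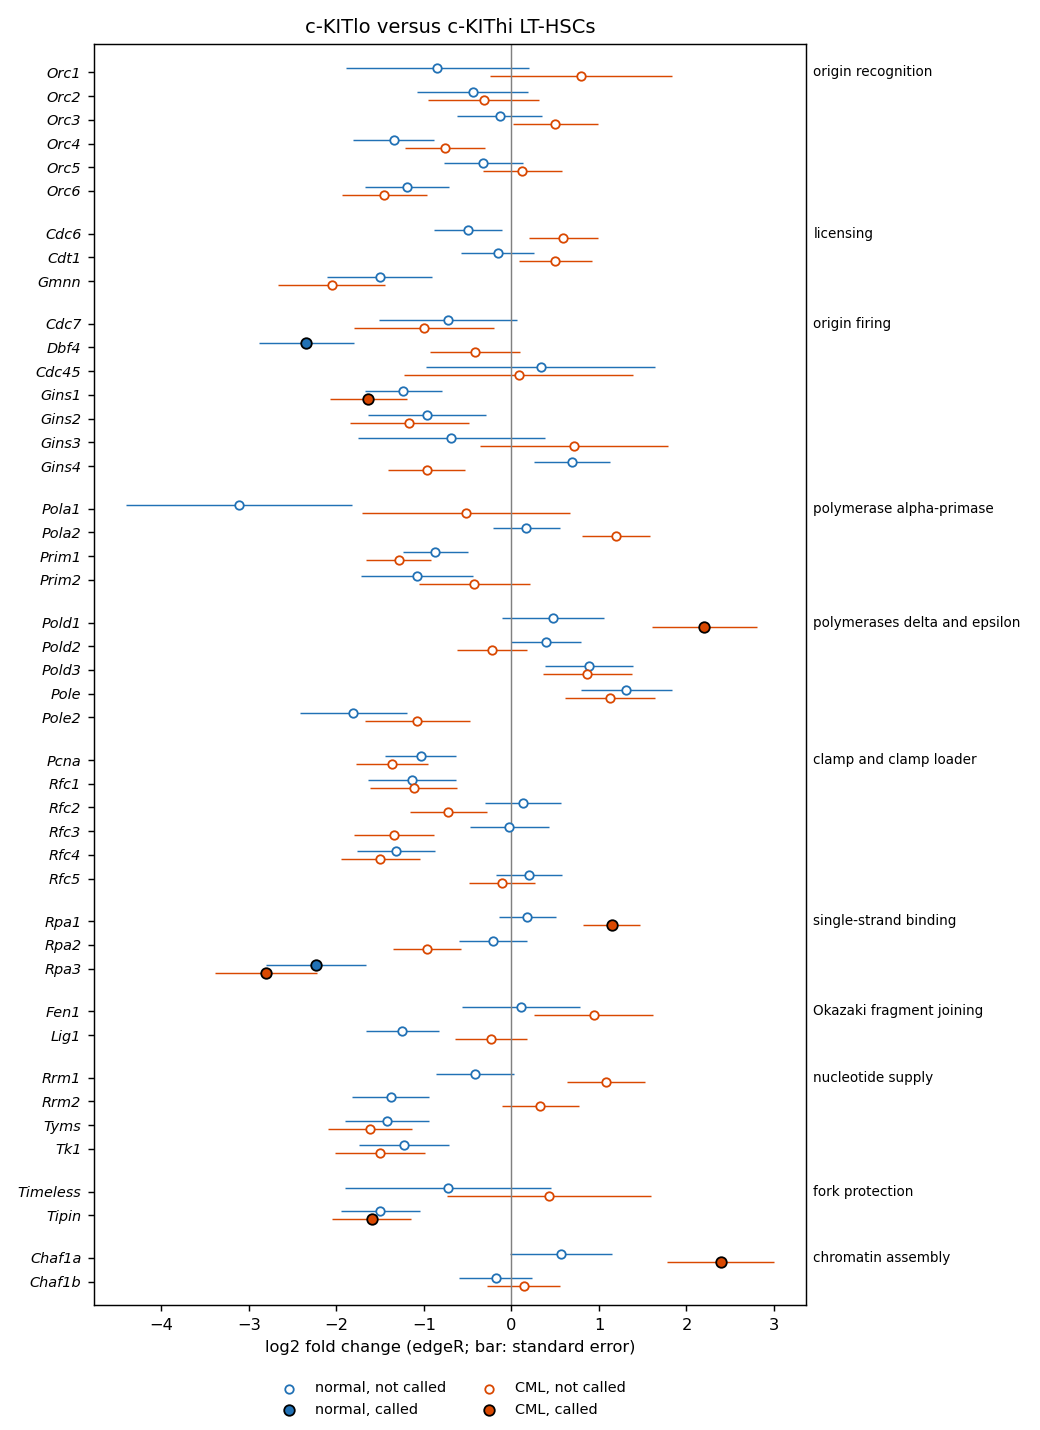
Log2 fold change of c-KITlo versus c-KIThi LT-HSCs (x axis) with its standard error for the 44 members, in rows by role, in normal (blue) and CML (orange). Filled points are called at an adjusted p under 0.05. Called members are 2 in normal and 6 in CML, and in CML subunits of RPA (Rpa1, Rpa3) and of CAF-1 (Chaf1a, Chaf1b) lie apart.

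Of the genes of the replicative polymerases, *Pold1* alone was called, in CML. *Pold1* (chr7:44532746-44548849, GRCm38), the catalytic subunit of polymerase delta, was at 71.1, 99.3 and 118 CPM in normal c-KIThi LT-HSCs, 59.1, 292 and 48.9 CPM in normal c-KITlo, 90.4, 80.2 and 52.1 CPM in CML c-KIThi, and 321, 314 and 391 CPM in CML c-KITlo. All CML c-KITlo libraries were above every other library, and normal c-KITlo replicate 2 came nearest. The change was 2.20 ± 0.60 (adjusted p = 0.0429) in CML and 0.47 ± 0.58 (adjusted p = 0.665) in normal. *Pold2*, an accessory subunit and the most abundant of the group per kilobase, was at 299, 278 and 242 CPM in normal c-KIThi LT-HSCs, 296, 255 and 527 CPM in normal c-KITlo, 393, 195 and 167 CPM in CML c-KIThi, and 247, 199.7 and 199 CPM in CML c-KITlo. Its groups overlapped in both disease states (0.40 ± 0.40 and -0.23 ± 0.40). *Pole*, the leading-strand polymerase, was at 1.31 ± 0.52 in normal and 1.13 ± 0.52 in CML, while its subunit *Pole2* was at -1.81 ± 0.61 and -1.07 ± 0.60. None of these 4 changes was called, though the groups did not overlap in any of them. In polymerase alpha-primase, *Prim1*, which makes the RNA primer, was at 245, 209 and 227 CPM in normal c-KIThi LT-HSCs, 140.5, 60.7 and 171 CPM in normal c-KITlo, 239, 233 and 185 CPM in CML c-KIThi, and 91.4, 94.8 and 82.7 CPM in CML c-KITlo. It was lower in every c-KITlo library, without passing the test (-0.87 ± 0.37, adjusted p = 0.156 in normal and -1.29 ± 0.37, adjusted p = 0.0512 in CML). *Pola2*, an accessory subunit, was at 1.199 ± 0.389 in CML (adjusted p = 0.0728). *Pola1* had the lowest fitted value of all members in normal (-3.11 ± 1.29, adjusted p = 0.146), with 0 counts in 1 library.

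All 6 genes of the PCNA clamp and its loader were below 0 in CML, where their median was -1.23 on the log2 scale, and 4 of 6 in normal, where it was -0.53. None was called. *Pcna* itself, the sliding clamp, had -1.04 ± 0.41 (adjusted p = 0.13) in normal and -1.37 ± 0.41 (adjusted p = 0.0573) in CML. *Rfc4*, a loader subunit and the highest of the group per kilobase, was at 201, 211 and 227 CPM in normal c-KIThi LT-HSCs, 31.9, 80.0 and 145 CPM in normal c-KITlo, 229.5, 218 and 202 CPM in CML c-KIThi, and 83.5, 81.6 and 65.2 CPM in CML c-KITlo. It was separated in both disease states (-1.32 ± 0.45, adjusted p = 0.0897 and -1.50 ± 0.45, adjusted p = 0.0565). *Rfc3* was at 186, 98.7 and 106 CPM in normal c-KIThi LT-HSCs, 123, 55.1 and 205 CPM in normal c-KITlo, 179.8, 201 and 136 CPM in CML c-KIThi, and 62.2, 76.3 and 65.4 CPM in CML c-KITlo. It was apart in CML (-1.34 ± 0.46, adjusted p = 0.0826) and at -0.02 ± 0.45 in normal. *Rfc5* was at 0.20 ± 0.38 in normal and -0.11 ± 0.38 in CML.

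RPA, the trimer that coats single-stranded DNA, had its large and small subunits called in opposite directions in CML. *Rpa1* (chr11:75298166-75348324, GRCm38), the DNA-binding large subunit, was at 216, 180.0 and 194 CPM in normal c-KIThi LT-HSCs, 247, 272 and 152 CPM in normal c-KITlo, 132, 97.0 and 156 CPM in CML c-KIThi, and 280.4, 271 and 301 CPM in CML c-KITlo. The CML groups were apart and the normal groups overlapped (1.15 ± 0.33, adjusted p = 0.0487 in CML and 0.18 ± 0.32, adjusted p = 0.778 in normal). *Rpa3* (chr6:8255936-8259173, GRCm38) was at 361, 267 and 224 CPM in normal c-KIThi LT-HSCs, 21.4, 34.3 and 126 CPM in normal c-KITlo, 244, 356 and 199.7 CPM in CML c-KIThi, and 39.3, 43.1 and 32.0 CPM in CML c-KITlo. Every c-KITlo library lay below every c-KIThi library, and normal c-KITlo replicate 3 was the highest of the 6. It was the only member called in both disease states, at -2.23 ± 0.57 (adjusted p = 0.0415) in normal and -2.81 ± 0.58 (adjusted p = 0.018) in CML. *Rpa2*, the middle subunit, lay between them in CML at -0.97 ± 0.39 (adjusted p = 0.135). Per kilobase of exon, *Rpa3* averaged 250.1 and 235 CPM in normal and CML c-KIThi LT-HSCs and 53.2 and 33.6 CPM in the c-KITlo groups, whereas *Rpa1* averaged 35.3 and 23.0, and 40.03 and 50.9 CPM.

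Of the genes that join Okazaki fragments, *Lig1*, the ligase, was at 316, 523 and 252 CPM in normal c-KIThi LT-HSCs, 214, 169 and 76.0 CPM in normal c-KITlo, 244, 344 and 296 CPM in CML c-KIThi, and 239, 234 and 277 CPM in CML c-KITlo. It was apart in normal (-1.25 ± 0.42, adjusted p = 0.087) and overlapped in CML (-0.24 ± 0.41). *Fen1*, the flap nuclease, was at 6.62 to 17.1 CPM, with 84.2% of its exonic bases shared with *Gm10143* and *Tmem258*, so its level is uncertain. Nucleotide supply genes were all below 0 in normal and split in CML. *Rrm1*, the large subunit of ribonucleotide reductase, was at 195, 424 and 262 CPM in normal c-KIThi LT-HSCs, 177, 369 and 113 CPM in normal c-KITlo, 223, 158 and 214 CPM in CML c-KIThi, and 452, 454 and 351 CPM in CML c-KITlo. *Rrm2*, its S phase-regulated small subunit, was at 162, 245 and 205 CPM in normal c-KIThi LT-HSCs, 30.7, 98.3 and 106 CPM in normal c-KITlo, 162, 91.6 and 111 CPM in CML c-KIThi, and 164, 141 and 154 CPM in CML c-KITlo. *Rrm1* was apart in CML (1.08 ± 0.45, adjusted p = 0.144) and *Rrm2* in normal (-1.38 ± 0.44, adjusted p = 0.0781). *Tyms*, which makes thymidylate, was at 534, 421 and 412 CPM in normal c-KIThi LT-HSCs, 114, 85.4 and 311 CPM in normal c-KITlo, 534, 609 and 287 CPM in CML c-KIThi, and 163, 171 and 132 CPM in CML c-KITlo. It was apart in both (-1.42 ± 0.48, adjusted p = 0.0888 and -1.62 ± 0.48, adjusted p = 0.0558). *Tk1*, which salvages thymidine, had -1.23 ± 0.51 and -1.50 ± 0.52.

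Fork protection and chromatin assembly each had 1 called subunit in CML. *Tipin* (chr9:64281581-64305424, GRCm38), which holds *Timeless* at the fork and was the most abundant member per kilobase of exon, was at 735, 417 and 323 CPM in normal c-KIThi LT-HSCs, 201, 76.7 and 244 CPM in normal c-KITlo, 478, 470.3 and 339.9 CPM in CML c-KIThi, and 149.6, 150.2 and 125 CPM in CML c-KITlo. The groups were apart in both disease states, with -1.60 ± 0.45 (adjusted p = 0.0482) in CML and -1.50 ± 0.45 (adjusted p = 0.0653) in normal. *Timeless* overlapped in both (-0.72 ± 1.17 and 0.43 ± 1.17). *Chaf1a* (chr17:56040439-56072289, GRCm38), the large subunit of the histone chaperone CAF-1, was at 29.2, 26.4 and 46.0 CPM in normal c-KIThi LT-HSCs, 60.6, 78.6 and 11.4 CPM in normal c-KITlo, 18.2, 17.1 and 24.7 CPM in CML c-KIThi, and 103, 98.6 and 113 CPM in CML c-KITlo. The CML c-KITlo libraries were above all others (2.39 ± 0.61, adjusted p = 0.0345 in CML and 0.57 ± 0.58, adjusted p = 0.595 in normal). *Ubxn6* shares 52.5% of the exonic bases of *Chaf1a*, and reads there were counted for neither. *Chaf1b*, its partner, was at 213, 193 and 154 CPM in normal c-KIThi LT-HSCs, 83.8, 149.7 and 260.5 CPM in normal c-KITlo, 275, 153 and 146 CPM in CML c-KIThi, and 225, 203 and 203 CPM in CML c-KITlo. It overlapped in both disease states (-0.18 ± 0.42 and 0.14 ± 0.42).

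Of the 44 members, 22 (50%) were below 0 in both disease states, compared with 30.5% of all genes tested, and 8 (18.2%, compared with 35.8%) were above 0 in both. The 2 comparisons share no library, but both carry the differences in depth and quality between the c-KIT labels. The joint count also follows in part from the share below 0 in each comparison. Those above 0 in both were *Cdc45*, *Pola2*, *Pold1*, *Pold3*, *Pole*, *Rpa1*, *Fen1* and *Chaf1a*. *Orc1*, *Orc3*, *Orc5*, *Cdc6*, *Cdt1*, *Gins3*, *Rrm1*, *Rrm2*, *Timeless* and *Chaf1b* were below 0 in normal and above 0 in CML. These are signs of fitted values, and for genes such as *Orc1*, *Cdc45*, *Gins3* and *Timeless* the SE exceeded the change in both disease states.

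Transcript length moved with these changes. In CML, the 3 members called lower have principal transcripts of 670 to 1841 bases and the 3 called higher of 3454 to 5535 bases. Of the 16 members with a principal transcript under 2 kb, 15 were below 0 in CML (median -1.36), and the exception was *Chaf1b*. For all tested genes of that length, 76.1% were below 0 and the median was -0.92. Of the 24 members of 2 to 5 kb, 10 were below 0 (median 0.23, compared with 0.81 over all genes of that length), and of the 4 longer ones 1 was. The Spearman correlation across genes between log2 fold change and length was 0.58 for the members and 0.38 for all genes in CML, and 0.26 and -0.02 in normal, where genes are not independent replicates. Counts on genes with less than 1 kb of exon made up 7.04% to 13.8% of gene counts in c-KIThi and 1.40% to 5.46% in c-KITlo libraries. When each library's trend on exonic length was taken out, 0 members were called higher and 3 lower in CML (0.348% and 3.65% of all genes), and the median was -0.83. In normal 0 were higher and 2 lower (2.71% and 2.77%). With the trend on principal transcript length taken out, 0 were called higher and 2 lower in CML (0.259% and 3.2% of all genes) and 0 higher and 6 lower in normal (3.65% and 4.1%). Under the latter, *Rpa3* was at -0.29 in CML and -0.65 in normal, *Rpa1* at 0.04, *Gins1* at -0.28, *Pold1* at 1.03 and *Chaf1a* at 1.38, none called (the last 4 in CML), while *Tipin* kept its call in CML (-1.56, adjusted p = 0.0403) and *Dbf4* its call in normal (-2.78, adjusted p = 0.0259).

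**Figure D4:**
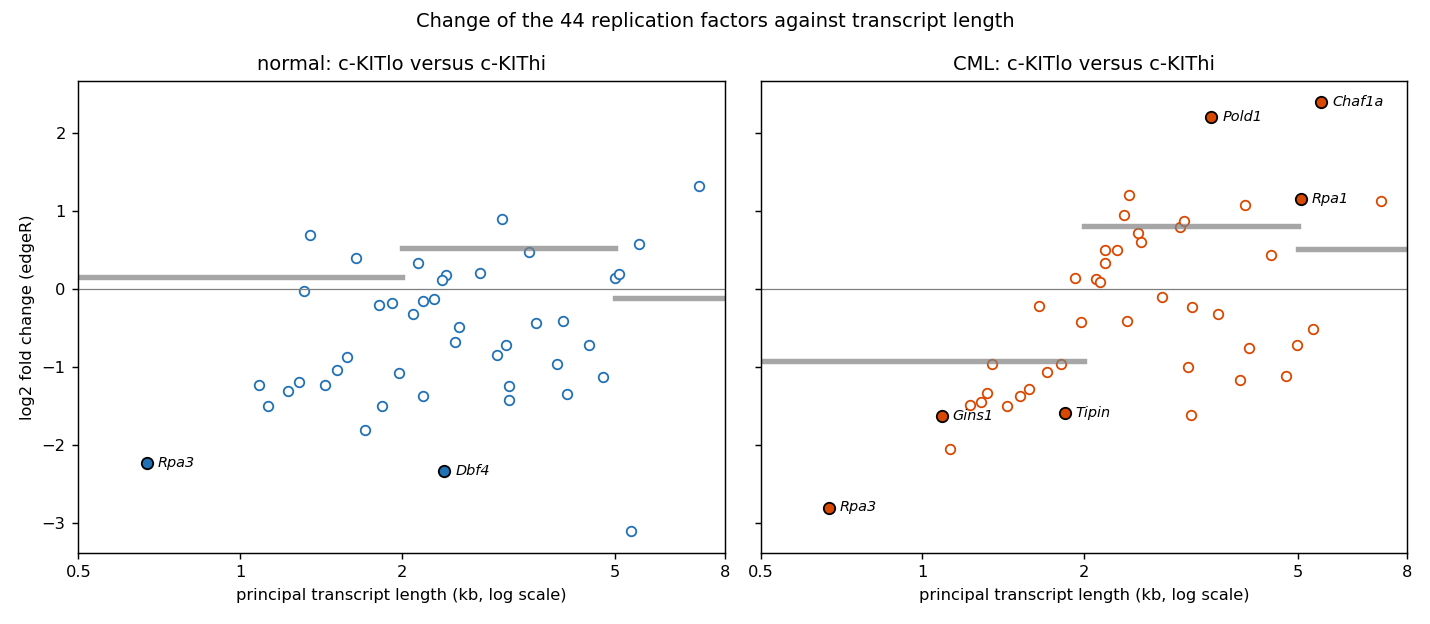
Log2 fold change of c-KITlo versus c-KIThi LT-HSCs (y axis) against principal transcript length (x axis, kb, log scale) for the 44 members in normal (left) and CML (right). Filled points are called members, and grey bars are medians of all tested genes under 2 kb, from 2 to 5 kb and of 5 kb or more. In CML 15 of the 16 members under 2 kb lie below 0, where the grey bar stands at -0.92.

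Between CML and normal LT-HSCs of the same c-KIT label, no member was called. In c-KITlo LT-HSCs 0.0681% of all genes were called higher and 0.0273% lower in CML. By edgeR 3 of the 44 members had an unadjusted p under 0.05, compared with 2003 of the 14676 genes tested. DESeq2 (1.79% of all genes higher and 1.6% lower) and limma-voom (0% and 0.0409%) also called no member. The median log2 fold change of the members was -0.01, compared with -0.13 over all genes. CML c-KITlo libraries lay above all normal c-KITlo libraries for 12 members (27.3%, compared with 12.3% of all genes) and below them for 1, *Pold2* (2.27%, compared with 7.84%). Transcript length moved with this comparison too. Of the 16 members under 2 kb, 13 were below 0, compared with 80.3% of all genes of that length. Of the 24 members from 2 to 5 kb, 8 were below 0, compared with 43.4% of all genes. The Spearman correlation with principal transcript length was 0.50 for the members and 0.38 for all genes. The part of length was not tested for these non-overlaps. The smallest p among the members was that of *Pold1* (1.36 ± 0.59, adjusted p = 0.334), followed by *Cdc6* (0.88 ± 0.39, adjusted p = 0.348) and *Rrm2* (0.97 ± 0.44, adjusted p = 0.359), with *Gins4* (-0.91 ± 0.44), *Rrm1* (0.93 ± 0.45) and *Rfc3* (-0.91 ± 0.45) next. Without normal c-KITlo replicate 2, which had 292 CPM of *Pold1*, 2 members were called higher, and without normal c-KITlo replicate 3 the median was 0.45. With 1 library left out, 1 to 910 of all genes were called. These libraries are the same ones as in the c-KIT comparisons, so the results are not separate from those above.

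In c-KIThi LT-HSCs 0.0204% of all genes were called higher and 0% lower in CML. By edgeR 0 members had an unadjusted p under 0.05, compared with 977 of the 14676 genes tested. DESeq2 (0.763% of all genes higher and 0.531% lower) and limma-voom (0.45% and 0.102%) called none. The median was -0.11, compared with 0.03 over all genes, and groups did not overlap for 4 members that were lower in CML (*Orc5*, *Rpa1*, *Chaf1a* and *Gins3*, 9.09%, compared with 6.36%) and for none that were higher (7.97% of all genes). *Orc3*, a core origin subunit, was at 69.1, 229 and 105 CPM in normal c-KIThi LT-HSCs, 185, 116 and 66.1 CPM in normal c-KITlo, 58.8, 52.1 and 85.9 CPM in CML c-KIThi, and 95.4, 101 and 82.2 CPM in CML c-KITlo. It had the smallest p of the members (-1.03 ± 0.49, adjusted p = 0.752), with overlapping groups. *Orc5* was at 63.0, 56.7 and 56.1 CPM in normal c-KIThi LT-HSCs, 52.9, 32.5 and 55.4 CPM in normal c-KITlo, 19.1, 48.7 and 34.9 CPM in CML c-KIThi, and 37.1, 36.9 and 37.8 CPM in CML c-KITlo. All CML c-KIThi libraries were below the normal ones (-0.78 ± 0.45, adjusted p = 0.826).

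**Figure D5:**
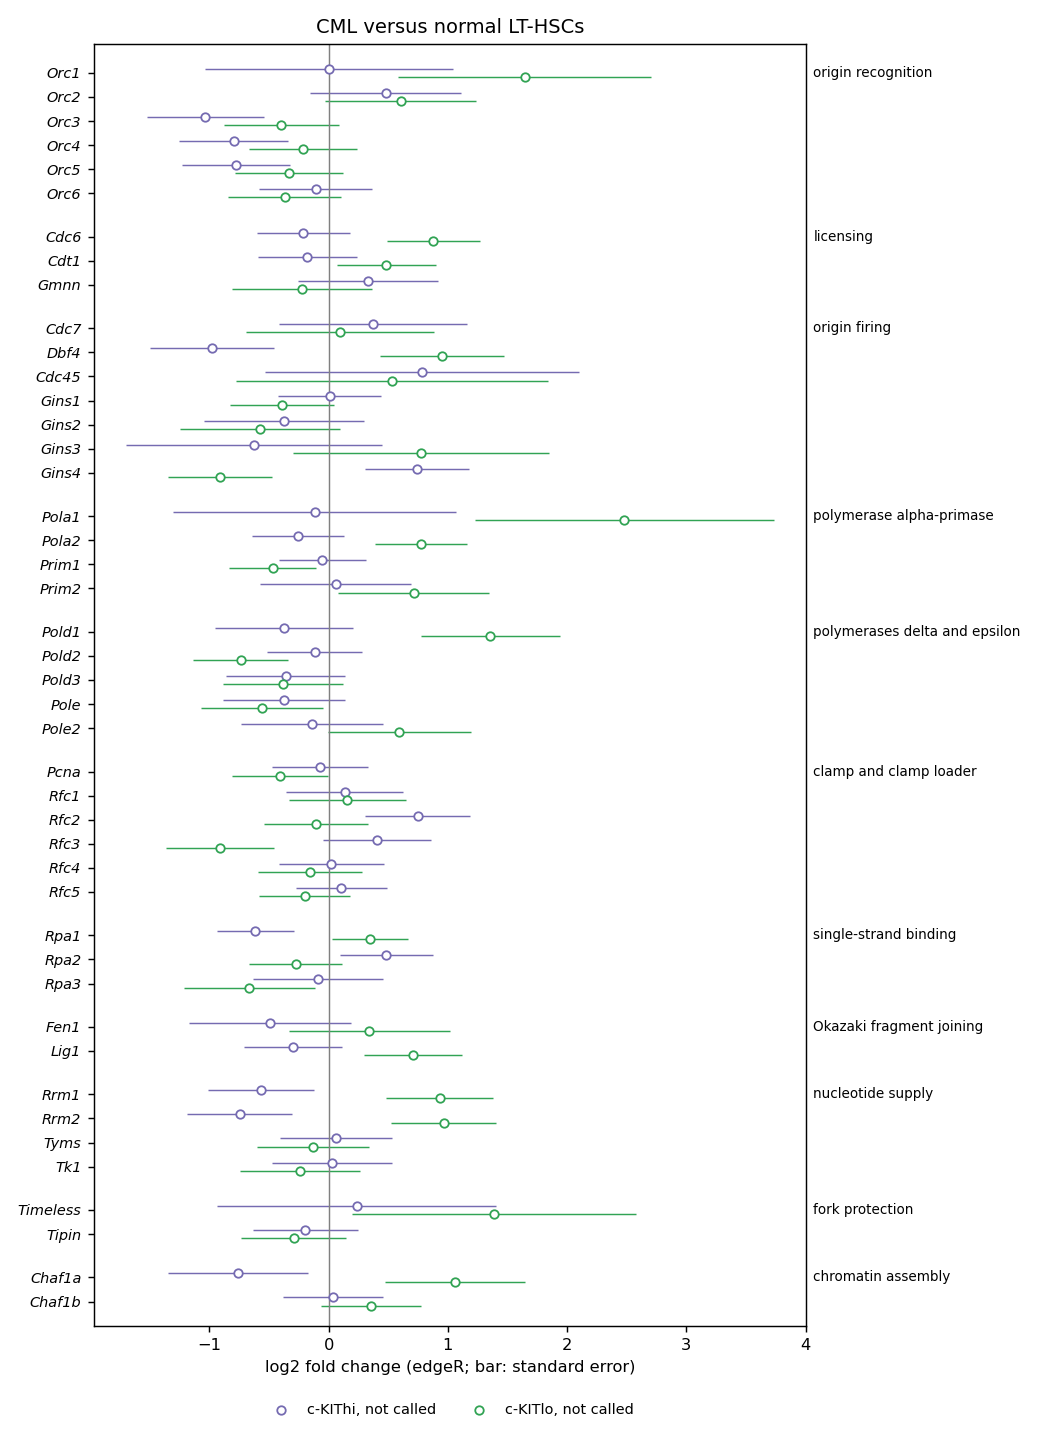
Log2 fold change of CML versus normal LT-HSCs (x axis) with its standard error for the 44 members, in rows by role, in c-KIThi (purple) and c-KITlo (green) libraries. No member is called, and Orc1, Cdc45, Gins3, Pola1 and Timeless have a standard error above 1.

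The c-KITlo versus c-KIThi change was then compared between CML and normal LT-HSCs in the same fit. No member and no gene was called (0% each way). DESeq2 (0.845% of all genes higher and 0.681% lower) and limma-voom (0% each way) also called no member. By edgeR 5 of the 44 members had an unadjusted p under 0.05, a share near that of all genes (1663 of 14676). The 5 were *Rrm2* (1.71 ± 0.62, adjusted p = 0.348), *Gins4* (-1.66 ± 0.62, adjusted p = 0.356), *Dbf4* (1.93 ± 0.74, adjusted p = 0.376), *Rrm1* (1.495 ± 0.631, adjusted p = 0.416) and *Chaf1a* (1.82 ± 0.83, adjusted p = 0.43). Calls of a member in 1 disease state alone, such as those of *Dbf4*, *Pold1* and *Chaf1a*, are therefore not shown to differ between normal and CML. Leaving out normal c-KITlo replicate 2 gave 1 member called higher. With 1 library left out, 0 to 416 of all genes were called. The Spearman correlation of this difference with principal transcript length was 0.53 for the members and 0.41 for all genes.

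Other genes of the cell cycle were read from lists for context, beside 3.1% of all genes called higher and 3.4% lower in normal (median 0.16) and 2.91% and 5.53% in CML (median 0.05). Of the 7 MCM genes (*Mcm2* to *Mcm7* of the helicase, and *Mcm10*), 5 were higher and 0 lower in CML c-KITlo versus c-KIThi LT-HSCs (median 1.49). Among them were *Mcm2* at 2.36 ± 0.52, *Mcm5* at 1.49 ± 0.34 and *Mcm3* at 1.86 ± 0.44 (adjusted p = 0.0214, 0.0245 and 0.0259). None of the 7 was called in normal (median 0.54). Their principal transcripts are of 2910 to 4867 bases, and all tested genes of 2 to 5 kb had a median of 0.81 in CML. Of 40 other DNA replication genes, 5 were lower and 0 higher in normal (median -0.61) and 9 were lower and 0 higher in CML (median -0.81). Among those with the smallest p were *Hells*, a chromatin remodeller (-4.74), and *Pclaf*, a PCNA-binding factor (-2.0), in normal, and *Pole4*, a small polymerase epsilon subunit (-2.19), topoisomerase *Top1* (-2.21) and *Pclaf* (-1.79) in CML. Of 30 G2/M and mitosis genes, 3 were lower in normal (median -1.39) and 4 in CML (median -0.81) and none was higher, with *Cdkn3*, *Spc25* and *Nusap1* called in normal (-3.41, -2.26 and -2.10) and *Cdkn3*, *Spc25* and *Cdk1* leading in CML (-4.11, -2.42 and -1.98). Of 26 G1 to S regulators, 3 were higher and 2 lower in normal (median -0.40), led by *Cdk6* (-3.06), *Cdkn1c* (2.43) and *Rbl2* (3.27), and 1 was higher in CML (median 0.38), the E2F repressor *E2f4* (2.76 ± 0.42, adjusted p = 0.0151). No gene of these lists was called between CML and normal.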

How the data were processed

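RNA of sorted LT-HSCs was amplified (SMARTer v4), tagmented with Nextera XT and sequenced on an Illumina HiSeq, without strand information. Per the labels and methods the authors aligned reads to GRCm38 (STAR 2.5.3a and DRAGEN are named) and deposited raw HTSeq 0.9.1 counts per gene for each library, and DESeq2 1.22.2 is also named. Reads shared by overlapping genes were counted for neither, and 5 HTSeq summary classes were left out here. The methods state more replicates a group than the 3 libraries analysed here. All 12 libraries were fitted at once in edgeR 4.0.16 (R 4.3.3) after filterByExpr and TMM scaling, with quasi-likelihood F tests of 5 comparisons and Benjamini-Hochberg adjustment over 14676 genes. Called means an adjusted p under 0.05. Each SE is that of the log2 fold change. Levels per kilobase were divided by all exonic bases of a gene, and by principal transcript length the order of the members would differ. The fits were also run on simulated counts with the same fixed spread in every group and no length trend. These data differ in both, so that run cannot show how reliable the calls are. Alternatives were DESeq2 1.42.0, limma-voom (limma 3.58.1), median-of-ratios scaling, no filter, 2 groups alone, a replicate block, thinning to 7753878 counts, removal of a length trend, and leaving out each library. The trend on principal transcript length was added after seeing the data. Exons, lengths and coordinates came from GENCODE annotation of GRCm38. Members named are those called, the 6 with the smallest p in each comparison and the highest per kilobase in each role, with others named after their values were seen. The members and gene lists were chosen with earlier results of these data known. One gene that the naming rule would pick is not reported here.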

Additional observations from a re-analysis of the deposited data

How the results depend on the processing

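The call of a member depended on the processing more than its direction did. In normal LT-HSCs, where 2 members were lower in c-KITlo libraries and 954 genes were called, DESeq2 gave 15 and 2700, limma-voom 0 and 2, a fit of the 2 groups alone 0 and 0, and removing the principal transcript length trend gave 6 members. Without the filter on low counts 1474 genes were called. In CML, where 3 members were higher, 3 lower and 1238 genes called, limma-voom gave 8, 17 and 6282, the fit of the 2 groups alone 6, 13 and 4688, DESeq2 12 lower members and 3183 genes (no adjusted p for *Pold1*), and median-of-ratios scaling 1 higher and 7 lower. Removing the exonic or principal length trend left 0 higher members and 586 or 507 genes, and the former moved the median to -0.83. Replicate numbers did not pair the libraries (correlations of same-numbered libraries from -0.0664 to 0.0961). With the replicate as a block, 0 members and 199 genes were called in normal, 0 higher and 1 lower members and 430 genes in CML, and 1 and 0 genes between CML and normal c-KITlo and c-KIThi LT-HSCs.

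Between CML and normal c-KITlo LT-HSCs, 14 genes were called, compared with 497 by DESeq2, 6 by limma-voom, 247 without the filter, 0 from 2 groups, and 9 and 4 without the exonic and principal length trends. *Cdc6* (-0.0501) and *Rrm1* (-0.19 and -0.18) turned direction there. For c-KIThi LT-HSCs, 3 genes became 190, 81, 118, 1 and, without the principal length trend, 7, and the member median moved to -0.29 and -0.28 without the length trends. The difference between disease states gave 0 genes, compared with 224 by DESeq2 and 137 without the filter, and has no fit of 2 groups. The cause of these shifts was not tested. Thinning libraries to equal depth moved no count of called members or genes by over 1.5 times, and no member was called between CML and normal under any of these settings. With 1 library left out, members called in normal ranged from 0 to 1 higher and 0 to 9 lower (0 to 1849 genes), those in CML from 0 to 3 higher and 0 to 11 lower (0 to 2084 genes), those between CML and normal c-KITlo LT-HSCs from 0 to 2 higher (1 to 910 genes), and those in the difference from 0 to 1 higher (0 to 416 genes), with 0 to 8 genes for c-KIThi LT-HSCs. With 3 libraries a group and counts near 0 in 1 of them, changes of *Cdc45*, *Pola1*, *Gins3* and *Timeless* could not be resolved.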
